A study of Mus musculus with 12 samples.

Results

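The dystrophin-glycoprotein complex was examined at the mRNA level through 8 of its genes: *Dmd*, *Utrn*, *Dag1*, *Sgca*, *Sgcb*, *Sgcd*, *Dtna* and *Sspn*. They were chosen by name, by matching their NCBI Gene IDs to mouse symbols, and all 8 were found among the 27179 genes of the count table. All 8 passed the filter on low counts that left 15502 genes for testing. The counts came from 12 tibialis anterior (TA) muscles of 6 wild-type male C57BL/6N mice, which arrived at 6 to 8 weeks of age and were used within 2 weeks. In each mouse, 1 TA was electroporated with 10 μg of empty pcDNA3 plasmid (Control muscles, n = 6) and the TA of the other leg with 10 μg of plasmid for full-length human *FRAIL1*, a lncRNA, driven by the cytomegalovirus promoter (*FRAIL1* muscles, n = 6). Both TAs were taken at day 7 for poly(A) RNA-seq. Uptake of plasmid varies between fibers, and every muscle, Control included, was injected and pulsed, so that uninjured muscle is not part of the comparison.

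Dystrophin is a long cytoskeletal protein beneath the muscle fiber membrane that binds actin at its amino terminus and dystroglycan near its carboxyl terminus. Dystroglycan spans the membrane and binds laminin in the basement membrane, so that the complex joins the contractile interior of the fiber to the matrix. The sarcoglycans and sarcospan steady that link, and dystrobrevin and the syntrophins gather signaling proteins on its inner face. Loss of dystrophin causes Duchenne muscular dystrophy, and loss of single sarcoglycans causes limb-girdle dystrophies.

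Counts were taken over whole genes, so all transcripts of a gene, from whichever start, were summed. This matters most for *Dmd*, which is annotated over 2257272 bases of chromosome X. Its start at chrX:82948870 gives the full-length muscle transcript. A second start lies 2099425 bases further on, at chrX:85048295, and gives short products that hold only the carboxyl-terminal part. The 250 bases before each start are shown for *Dmd*, whose count sums a muscle start and a widely used short one, and for *Sspn*, the member with the largest fold change, which has starts 2249 bases apart. The sequences are those of RefSeq for GRCm38.p6, plus strand, and 7 of the 8 members had an entry. Capitals mark matches on either strand to the E-box CANNTG, the GC box GGGCGG, the TATA box TATAAA and the CArG box, a serum response factor motif. Of 32851 listed promoters, 66.2%, 32.7%, 12.4% and 1.47% held these 4 motifs in the same window.
*Dmd* muscle start, chrX:82948620-82948869: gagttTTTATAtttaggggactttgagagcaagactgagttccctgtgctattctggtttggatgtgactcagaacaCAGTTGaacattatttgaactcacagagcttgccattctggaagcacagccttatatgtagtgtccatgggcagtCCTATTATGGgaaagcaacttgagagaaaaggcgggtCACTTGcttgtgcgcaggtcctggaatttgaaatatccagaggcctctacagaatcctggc
*Dmd* short-product start, chrX:85048045-85048294: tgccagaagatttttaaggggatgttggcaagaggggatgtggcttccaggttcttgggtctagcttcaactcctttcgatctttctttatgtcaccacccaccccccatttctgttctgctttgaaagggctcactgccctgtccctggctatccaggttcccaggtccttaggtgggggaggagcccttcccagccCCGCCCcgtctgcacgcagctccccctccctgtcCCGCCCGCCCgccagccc
*Sspn* first start, chr6:145931623-145931872: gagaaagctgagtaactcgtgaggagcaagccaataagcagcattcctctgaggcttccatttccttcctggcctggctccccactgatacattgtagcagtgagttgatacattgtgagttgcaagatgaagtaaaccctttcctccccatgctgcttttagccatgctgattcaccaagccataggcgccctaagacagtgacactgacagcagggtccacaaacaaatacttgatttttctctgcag
*Sspn* second start, chr6:145933872-145934121: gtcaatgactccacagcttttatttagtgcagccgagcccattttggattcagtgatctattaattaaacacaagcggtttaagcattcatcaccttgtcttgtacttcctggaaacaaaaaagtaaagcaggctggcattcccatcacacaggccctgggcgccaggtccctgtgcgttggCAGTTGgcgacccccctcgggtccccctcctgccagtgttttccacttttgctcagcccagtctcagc

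The *Dmd* muscle start was preceded by 2 E-boxes, 1 TATA match and 1 CArG match with a GC content of 45.2%. The short-product start was preceded by 3 GC box matches and none of the other motifs, with a GC content of 60%. The first *Sspn* window held none of the 4 motifs and the second held 1 E-box. In the GENCODE annotation *Sspn* begins at base 145931641, inside the first window. Most of that window is thus within the gene by that annotation, and whether it acts as a promoter was not tested. The motif counts are matches of letters. The gene counts do not tell which start was used in either group.

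None of the 8 members differed between *FRAIL1* and Control muscles (edgeR quasi-likelihood test, Benjamini-Hochberg adjusted p under 0.05), where 6.28% of all tested genes did (974 of 15502), 4.43% higher and 1.85% lower. At an unadjusted p-value under 0.05 the count was also 0 of 8, against 27.7% of all tested genes, and DESeq2 and limma voom called 0 of 8 as well, against 14.4% and 11.8%. Log2 fold changes (*FRAIL1* minus Control) ran from -0.19 for *Sspn* to 0.14 for *Sgcd*, with a median of -0.028, beside a median of 0.0096 over all tested genes. Of the members, 5 had the lower fitted level and 3 the higher in *FRAIL1* muscles. The 95% intervals of the 8 fold changes, not adjusted for their number, lay between -0.47 and 0.37 on the log2 scale, that is between 0.724-fold and 1.29-fold. The Control and *FRAIL1* values overlapped for every member, whereas 4.88% of all tested genes had groups that did not overlap. When the mouse was added to the fit as a block, *Sspn* was called lower by edgeR and by DESeq2. That is 1 of 8 members, against 14.1% and 18.7% of all tested genes called in either direction and 6.62% and 9.17% called lower. RNA was taken from whole muscle, so fewer cells of a type and less RNA per cell cannot be told apart.

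**Figure D1:**
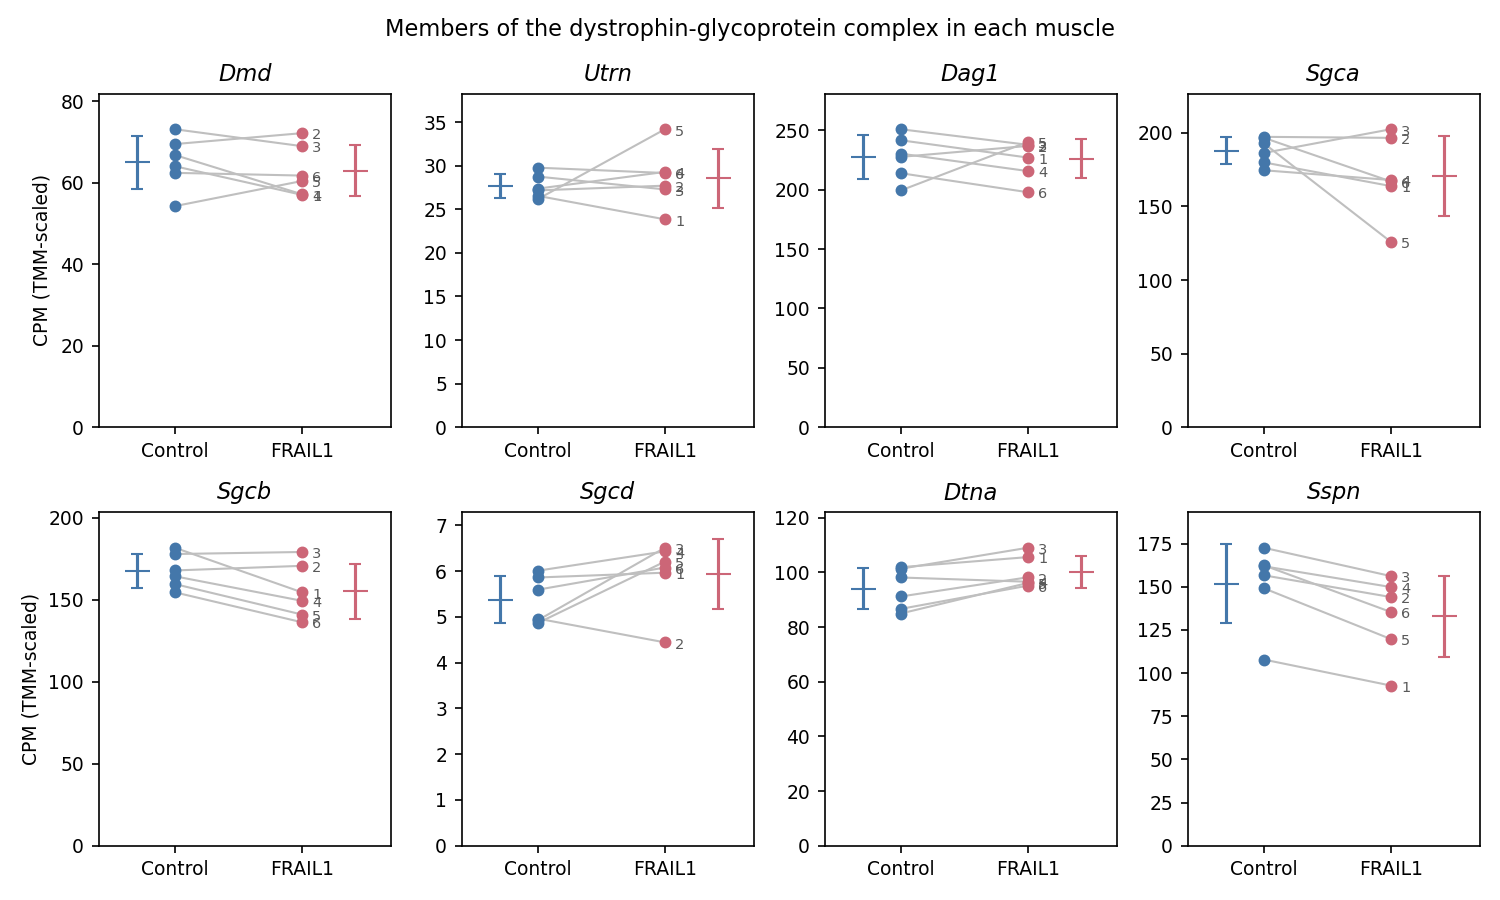
Level of each member in CPM (linear axis from 0) in the 6 Control (blue) and 6 *FRAIL1* muscles (red). Gray lines join muscles of the same number, given at the right, and the outer bars are the mean ± SD of 6 muscles. The groups overlap in all 8 panels, and only for *Sspn* do all 6 lines point down.

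Control libraries held 45018389 to 59309210 counts and *FRAIL1* libraries 44848322 to 60527385. Levels are given as CPM, counts scaled to a common effective library size after TMM normalization. TMM factors ran from 0.935 to 0.983 in Control and from 0.965 to 1.19 in *FRAIL1* muscles. They were thus mostly higher in *FRAIL1* muscles, which lowers the CPM of these relative to Control. The small fold changes of the members depend on this scaling, and no fit was made without one. *FRAIL1* muscle 5 stood apart (TMM factor 1.19, against 0.935 to 1.07 in the others). Single members were counted by at least 207 reads in every muscle, a minimum reached by *Sgcd*, and the other 7 by at least 1113. Nothing in the labels ties the muscle numbers to mice by name. The muscles of 1 number were taken as the TAs of 1 mouse, since each mouse gave 1 muscle to each group.

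*Dmd* and *Utrn* encode the cytoskeletal anchor and its homolog. Utrophin takes the place of dystrophin in developing and regenerating fibers and lies mostly at the neuromuscular and myotendinous junctions in the adult. *Dmd* (Gene ID 13405, chromosome X of GRCm38, 82948870 to 85206141) ranged from 54.3 to 73.2 CPM in Control muscles with a median of 65.5, and from 57.1 to 72.2 CPM with a median of 61.1 in *FRAIL1* muscles. Its lowest muscle and its highest muscle were both Control muscles. The means were 65.1 ± 6.52 and 62.9 ± 6.29 CPM (SD, n = 6), with a log2 fold change of -0.048 (95% interval -0.22 to 0.12, adjusted p = 0.733). The *FRAIL1* muscle was lower in 4 of 6 mice.

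*Utrn* (Gene ID 22288, chromosome 10, 12382188 to 12869365) ranged from 26.2 to 29.8 CPM in Control muscles with a median of 27.3, and from 23.8 to 34.2 CPM with a median of 28.4 in *FRAIL1* muscles. The lowest and the highest *Utrn* values were both in *FRAIL1* muscles, numbers 1 and 5. The log2 fold change was 0.049 (95% interval -0.11 to 0.20, adjusted p = 0.702), and 3 of 6 mice had the higher level in their *FRAIL1* TA. The sign rested on *FRAIL1* muscle 5: without that muscle the log2 fold change was -0.011. *Utrn* reads per *Dmd* read were 0.428 ± 0.0411 in Control and 0.458 ± 0.0717 in *FRAIL1* muscles (SD, n = 6), from 0.391 to 0.482 and from 0.384 to 0.565. The *FRAIL1* muscles numbered 4 and 5, at 0.512 and 0.565, were above every Control muscle, 3 others lay within the Control range, and muscle 2, at 0.384, was just below it.

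*Dag1* encodes the precursor that is cleaved into α-dystroglycan, which binds laminin, and β-dystroglycan, which crosses the membrane and binds dystrophin. It was the member with the most reads per muscle and the smallest fold change. *Dag1* (Gene ID 13138, chromosome 9, 108204634 to 108263958) ranged from 199 to 251 CPM in Control muscles with a median of 229, and from 198 to 240 CPM with a median of 232 in *FRAIL1* muscles. The ranges lay almost on top of each other. The log2 fold change was -0.0087 (95% interval -0.16 to 0.14, adjusted p = 0.952), and its sign turned when any 1 of 4 single muscles was left out.

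The sarcoglycans are single-pass membrane proteins that assemble as a subcomplex in muscle fibers. *Sgca* (Gene ID 20391, chromosome 11, 94962791 to 94976327), which encodes the α-subunit of striated muscle, ranged from 175 to 197 CPM in Control muscles (median 190) and from 126 to 202 CPM in *FRAIL1* muscles (median 167). The *FRAIL1* muscles spread further on both sides, with a coefficient of variation of 16% against 4.95% in Control, and muscle 5 was the lowest of all 12. The log2 fold change of *Sgca* was -0.14 (95% interval -0.34 to 0.060, adjusted p = 0.35), and 5 of 6 mice had the lower level in their *FRAIL1* TA. Without *FRAIL1* muscle 5 it was -0.068.

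*Sgcb* (Gene ID 24051, chromosome 5, 73632749 to 73647790), which encodes the β-subunit, ranged from 155 to 182 CPM in Control muscles (median 166) and from 136 to 179 CPM in *FRAIL1* muscles (median 152). The *FRAIL1* muscles numbered 4, 5 and 6 were below every Control muscle. The log2 fold change was -0.11 (95% interval -0.27 to 0.045, adjusted p = 0.341), and the level was lower in 4 of 6 mice. The other 2 mice had *FRAIL1* over Control log2 ratios of 0.024 and 0.010, close to none.

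*Sgcd* (Gene ID 24052, chromosome 11, 46896253 to 47988969), which encodes the δ-subunit, was the member with the fewest reads. It ranged from 4.87 to 6.01 CPM in Control muscles (median 5.28) and from 4.44 to 6.51 CPM in *FRAIL1* muscles (median 6.14). *FRAIL1* muscle 2 was the lowest of all 12, while *FRAIL1* muscles 3, 4, 5 and 6 were above every Control muscle. The log2 fold change of 0.14 (95% interval -0.082 to 0.37, adjusted p = 0.397) had the opposite sign to those of *Sgca* and *Sgcb*, with none of the 3 past the threshold. It was higher in 5 of 6 mice.

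*Dtna* encodes α-dystrobrevin, a relative of dystrophin on the inner face of the complex that binds dystrophin and syntrophins. *Dtna* (Gene ID 13527, chromosome 18, 23415135 to 23659715) ranged from 84.9 to 102 CPM in Control muscles (median 94.6) and from 95.1 to 109 CPM in *FRAIL1* muscles (median 97.4). The lowest *FRAIL1* muscle was above 3 of the Control muscles. The log2 fold change was 0.090 (95% interval -0.043 to 0.22, adjusted p = 0.366), and 5 of 6 mice had more in their *FRAIL1* TA, by up to 0.18 on the log2 scale. An antisense gene, *Gm47898*, overlaps 0.532% of its exons.

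*Sspn* encodes sarcospan, a small protein with 4 membrane-spanning segments that associates with the sarcoglycans. *Sspn* (Gene ID 16651, chromosome 6, 145931641 to 145965223) ranged from 108 to 173 CPM in Control muscles (median 159) and from 92.8 to 156 CPM in *FRAIL1* muscles (median 140). The muscles numbered 1 were the lowest of each group, at 108 CPM in Control and 92.8 CPM in *FRAIL1*. The means were 152 ± 22.9 and 133 ± 23.4 CPM (SD, n = 6), so the difference between groups was smaller than the SD within either group. Without a term for the mouse the log2 fold change was -0.19 (95% interval -0.47 to 0.085, adjusted p = 0.355).

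Within mice, all 6 had less *Sspn* in their *FRAIL1* TA, a pattern shared by 11.7% of all tested genes. The log2 ratios of *FRAIL1* over Control were -0.22, -0.12, -0.14, -0.11, -0.32 and -0.26 for mice 1 to 6. Their SD of 0.0839 was the second lowest of the members after that of *Dtna* (0.0701), and that of *Sgca* was the highest (0.255). When edgeR was given a term for the mouse, the log2 fold change of *Sspn* was -0.20 (standard error 0.0529, 95% interval -0.31 to -0.080) and its adjusted p-value was 0.0334. Leaving out 1 mouse at a time from that fit gave log2 fold changes of -0.21 to -0.17. The adjusted p-value stayed under 0.05 without mouse 2 or 5 (0.0453 and 0.0196) and was above it without mouse 1, 3, 4 or 6 (0.106, 0.0544, 0.0714 and 0.0982). An antisense gene, *Sspnos*, overlaps 1.38% of its exons, and the use of strand in counting is not given in the sources used here.

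**Figure D2:**
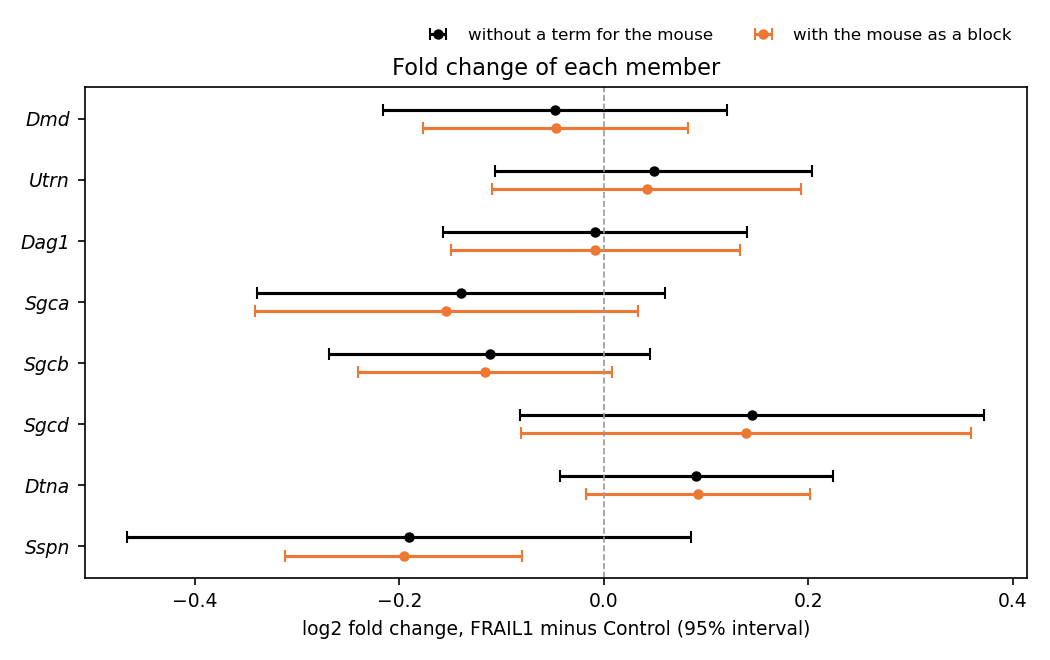
Log2 fold change of each member, *FRAIL1* minus Control, with its 95% interval from edgeR's quasi-likelihood fits of 12 muscles, without a term for the mouse (black) and with the mouse as a block (orange). Every black interval crosses 0, and of the orange ones that of *Sspn* alone, from -0.31 to -0.080, does not.

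Levels of different members were compared per kilobase of exon, as RPKM over the merged exons of the GENCODE annotation. *Sgca* had the highest level in Control muscles at 108 ± 5.36 RPKM (SD, n = 6). It was followed by *Sgcb* at 41.4 ± 2.59, *Dag1* at 35.8 ± 2.93 and *Sspn* at 30.4 ± 4.57 RPKM. In this middle group, each gene's range of muscles overlapped that of its neighbor in the order. *Dtna* at 5.55 ± 0.440, *Dmd* at 2.73 ± 0.274, *Utrn* at 1.61 ± 0.0804 and *Sgcd* at 0.650 ± 0.0622 RPKM came after, each with a range apart from the next. *FRAIL1* muscles had the same order.

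Per length of the longest protein-coding transcript, an alternative chosen after seeing the data, the Control order was unchanged. The lower genes then came closer, with *Dtna* at 14.9, *Dmd* at 4.36, *Utrn* at 2.23 and *Sgcd* at 2.19 RPKM. The *Utrn* and *Sgcd* ranges overlapped on that scale, and in *FRAIL1* muscles *Sgcd* at 2.42 was ahead of *Utrn* at 2.31 RPKM. The δ-sarcoglycan mRNA was measured at a small share of the α- and β-sarcoglycan mRNA on either length.

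**Figure D3:**
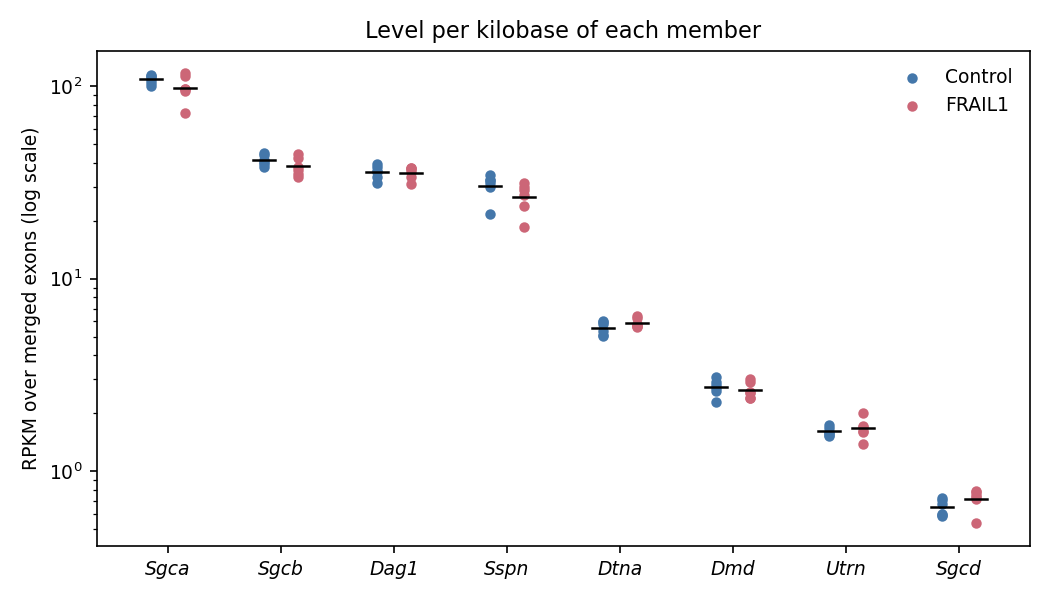
Level of each member per kilobase of merged exon (RPKM, log axis) in Control (blue) and *FRAIL1* muscles (red), with 6 points a group and the mean as a black line. *Sgca*, with a Control mean of 108 RPKM, is at the top and *Sgcd*, at 0.650 RPKM, at the bottom, and the groups lie side by side for each gene.

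The members did not vary as 1 unit from muscle to muscle. Over the 12 muscles, with the group means removed, Pearson's r of log2 CPM between pairs of members ran from -0.51 to 0.74 with a median of 0.10 over 28 pairs. The values are descriptions, since all points share their libraries and scaling. The highest were *Dag1* with *Dtna* (0.74), *Sgcb* with *Dtna* (0.72), *Dag1* with *Sgcb* (0.67) and *Dmd* with *Dag1* (0.66). *Sgca* went with *Sgcb* (0.58) and against *Sgcd* (-0.38), and *Utrn* went against *Sgca* (-0.51). *FRAIL1* muscle 5 held both the lowest *Sgca* (126 CPM) and the highest *Utrn* (34.2 CPM) of the 12 muscles. The value for *Utrn* with *Sgca* thus leans on that muscle, and r without it was not computed. *Dmd* and *Utrn* were close to unrelated (0.11).

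Among 7869 other genes with a mean of at least 10 CPM, those most like each member over the same 12 muscles were listed. For *Dmd* they were *Pds5b*, *Lpgat1* and *Ltn1* (r = 0.96, 0.94 and 0.94), and for *Utrn* *F2r* and *Rbbp6* (0.93 and 0.90). For *Dag1* they were *Mapk6*, *Zfp641* and *Abca3* (0.96, 0.89 and 0.88), and for *Dtna* *Zfp609*, *Celf1* and *Bet1* (0.93, 0.93 and 0.91). *Sgca* was most like *Thap4*, *Uqcc1* and *Clcn1*, the chloride channel of the fiber membrane (0.98, 0.98 and 0.97), and *Sgcb* most like *Popdc3*, *Rprd1a* and *Ncor1* (0.97, 0.94 and 0.94). *Sgcd* was most like *Rbm8a*, *Mustn1* and *Sptssa* (0.85, 0.84 and 0.84), and *Sspn* most like *Fgd5*, a gene of endothelial cells, *Gbe1* and *Ehbp1* (0.94, 0.91 and 0.90). No other member was among the genes compared, and the highest of so many values is high by selection.

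**Figure D4:**
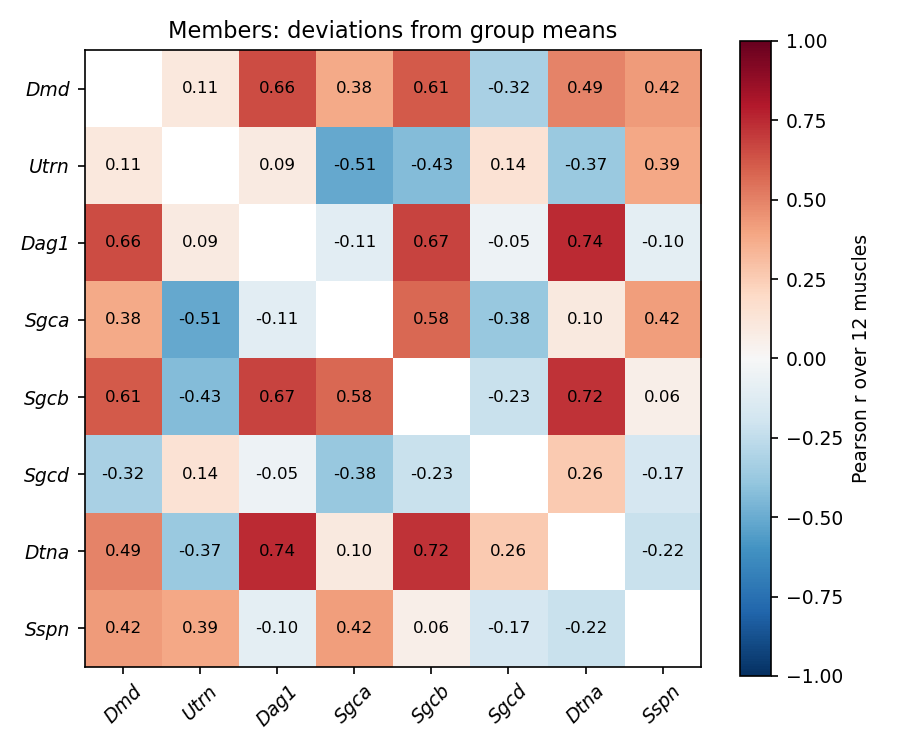
Pearson's r between members over 12 muscles, computed on log2 CPM after the mean of each group was removed, on a color scale from -1 (blue) to 1 (red). *Dmd*, *Dag1*, *Sgcb* and *Dtna* form the reddest block, and *Utrn* has its lowest values with *Sgca* (-0.51) and *Sgcb* (-0.43). The first of these leans on *FRAIL1* muscle 5, which had the lowest *Sgca* and the highest *Utrn*.

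The labeled tissue was checked by its markers. The summed level of 8 markers of muscle fibers was 173895 to 203129 CPM in Control and 132562 to 186399 CPM in *FRAIL1* muscles. Of these markers 1 of 8, *Ckm*, was lower (log2 fold change -0.38, adjusted p = 0.0482). The lowest sum was in *FRAIL1* muscle 5, where *Sgca* was lowest and *Utrn* highest. Markers of satellite cells and regenerating fibers, cells in which utrophin is made, were higher for 6 of 9 genes. These were *Myog*, *Myh3*, *Myh8*, *Mymk*, *Mymx* and *Ncam1*. *Pax7*, *Myf5* and *Myod1* were not called in this fit (adjusted p = 0.0634, 0.0645 and 0.0725). The summed level of the list was 183 to 236 CPM in Control and 363 to 1630 CPM in *FRAIL1* muscles, the top value in muscle 5. Most of it came from *Myh3* and *Myh8*, with means of 228 and 353 CPM in *FRAIL1* muscles. Endothelial markers, which also mark a cell type that makes utrophin, were lower for 3 of 8 genes (445 to 501 against 347 to 437 CPM). Of 8 macrophage and 8 fibroblast markers 0 were called by edgeR, with 5 and 4 of them at an unadjusted p-value under 0.05. Of all tested genes, 27.7% were at such an unadjusted p-value. DESeq2 without the block called 4 macrophage and 3 fibroblast markers, and limma voom 2 and 2, beside 14.4% and 11.8% of all tested genes. The macrophage and fibroblast sums were 203 to 316 against 255 to 672 CPM and 1030 to 1849 against 1953 to 4977 CPM, with *FRAIL1* muscle 5 the highest for fibroblasts. Of 7 Schwann cell and 6 smooth muscle and pericyte markers 0 were called by edgeR, with 1 and 2 at an unadjusted p-value under 0.05 (82.9 to 147 against 69.8 to 108 CPM, and 239 to 362 against 257 to 313 CPM). No marker was at 0 in every muscle. With the mouse as a block, 4 macrophage and 9 satellite cell and regenerating fiber markers were higher, and 4 endothelial markers, 2 fiber markers and 1 smooth muscle and pericyte marker were lower, the last *Rgs5* (adjusted p = 0.00230). With 1 muscle left out, 0 to 4 of the fiber markers and 1 to 4 of the endothelial markers were called. The ranges were 0 to 5 for macrophage, 0 to 3 for fibroblast and 5 to 7 for satellite cell and regenerating fiber markers. *Ckm* kept its call in 3 of these 12 fits, *Vwf* in 2, *Flt1* in 5 and *Tek* in 12. The part of these cell types in the members' levels was not tested.

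The other genes around the complex were taken from 7 lists with 82 genes, of which 79 were tested and 14 were called, 11 higher and 3 lower, 17.7% beside the 6.28% of all tested genes. With the mouse as a block 22 were called, 13 higher and 9 lower, beside 14.1% of all tested genes. The lists were chosen with earlier results of these data known, so neither share is a test of enrichment. Without the block, 5 of the 14 called genes were acetylcholine receptor subunits. The genes called only with the block are named with their lists, after their values were seen. Of 10 other subunits, 8 were tested and 0 were called by edgeR, with a median log2 fold change of 0.13. At an unadjusted p-value under 0.05 there were 2 of the 8, beside 27.7% of all tested genes. These 2 are named here after their values were seen. *Nos1*, the neuronal nitric oxide synthase that syntrophin holds at the membrane, measured 8.34 ± 1.58 and 5.78 ± 1.96 CPM (SD, n = 6), with a log2 fold change of -0.53 and an adjusted p-value of 0.133. It was lower in 6 of 6 mice, and its adjusted p-value with the mouse as a block was 0.0577. *Nos1* was called with DESeq2 and the block, and by edgeR with the block without mouse 2 or without both muscles numbered 5. *Sntb1*, β1-syntrophin, had a log2 fold change of 0.58 (adjusted p = 0.146).

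Of 17 enzymes that build the sugar chain by which α-dystroglycan binds laminin, 17 were tested and 0 were called by edgeR. At an unadjusted p-value under 0.05 there were 5 of the 17, beside 27.7% of all tested genes. *B3galnt2*, the most abundant of these enzymes, which adds N-acetylgalactosamine, measured 99.2 ± 12.2 and 79.1 ± 17.7 CPM (SD, n = 6). Its log2 fold change was -0.33 (adjusted p = 0.127, and 0.0393 with the mouse as a block). The list's median was 0.012, and 9 of its genes had a log2 fold change above 0. With the mouse as a block 2 of the 17 were lower, *B3galnt2* and *Rxylt1*, a xylosyltransferase (adjusted p = 0.0134 with the block and 0.0548 without).

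Of 11 matrix ligands of dystroglycan, 10 were tested, with 1 higher and 1 lower. *Bgn*, the proteoglycan biglycan that binds dystroglycan and sarcoglycans, rose from 67.2 ± 5.91 to 130 ± 40.9 CPM (SD, n = 6; log2 fold change 0.95, adjusted p = 0.0111). *Egflam*, which encodes pikachurin, a dystroglycan ligand of photoreceptor synapses, fell from 31.2 ± 3.80 to 20.6 ± 3.85 CPM (SD, n = 6; log2 fold change -0.60, adjusted p = 0.0179). Both calls held with any 1 muscle left out, and both were lost with the mouse as a block and mouse 1 left out (adjusted p = 0.0529 and 0.0801). With the block on all 6 mice 1 ligand was higher and 2 were lower, with *Lama5*, a laminin chain, added (adjusted p = 0.0221 with the block and 0.0594 without).

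Integrin α7β1 is the other laminin receptor of the muscle fiber. Of 12 genes of integrin adhesion, 3 were higher and 1 was lower. *Itga7*, which encodes its α-subunit, rose from 155 ± 11.0 to 215 ± 31.9 CPM (SD, n = 6; log2 fold change 0.47, adjusted p = 0.0124), above every Control muscle in each of the 6 *FRAIL1* muscles (171 to 263 against 143 to 168 CPM). *Itgb1*, its β-subunit, rose with a log2 fold change of 0.26 (adjusted p = 0.0397), and *Lims1*, an adaptor of the integrin-linked kinase, with 0.37 (adjusted p = 0.0479, and 0.0685 with the mouse as a block). *Fermt2*, kindlin-2, which activates integrins, fell with -0.34 (adjusted p = 0.0416). With the mouse as a block the list had 2 higher and 2 lower, since *Lims1* lost its call and its relative *Lims2* was called lower (adjusted p = 0.0438 with the block and 0.0945 without). The difference between these genes and the members was not tested.

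Of 12 cytoskeletal linkers at the costamere, the sites where the membrane is tied to the Z-disc, 1 was lower. *Synm*, an intermediate filament protein that binds dystrophin and α-dystrobrevin, fell from 728 ± 55.2 to 519 ± 114 CPM (SD, n = 6; log2 fold change -0.49, adjusted p = 0.0418). *Des* and *Flnc*, desmin and filamin C, had log2 fold changes of 0.15 and 0.13 (adjusted p = 0.186 and 0.589). With the mouse as a block 1 linker was higher and 2 were lower: *Krt8*, a keratin (adjusted p = 0.00636 with the block and 0.0556 without), and *Synm* and *Sptb*, β-spectrin (0.0404 and 0.109).

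Of 10 membrane repair genes 2 were higher, *Ahnak2* (log2 fold change 0.89, adjusted p = 8.1e-04) and *Anxa5*, annexin A5 (0.40, adjusted p = 0.0481). With the mouse as a block 3 were higher and 1 was lower, with *Anxa2*, annexin A2, added (adjusted p = 0.0201 with the block and 0.0825 without) and *Ano5*, anoctamin 5, called lower (0.0169 and 0.107). Of 10 genes of the postsynaptic apparatus, where utrophin gathers in adult muscle, 5 were higher, all of them acetylcholine receptor subunits: *Chrng* (log2 fold change 1.88), *Chrna1* (1.46), *Chrnd* (1.22), *Chrnb1* (0.73) and *Chrne* (0.36). Their adjusted p-values were 0.00160, 3.4e-04, 0.00209, 0.00391 and 0.0227. In the fit with the block 6 were higher, with *Lrp4*, the agrin receptor, added (adjusted p = 0.0174 with the block and 0.0529 without). The rest of the list, *Musk*, *Rapsn*, *Dok7* and *Colq*, was not called in either fit (adjusted p = 0.643, 0.419, 0.723 and 0.719 without the block). *Utrn* had a log2 fold change of 0.049.

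Some of these calls were lost when 1 muscle was left out, though every fold change kept its direction. The calls of *Bgn*, *Egflam*, *Itga7*, *Ahnak2*, *Chrna1*, *Chrnb1*, *Chrnd* and *Chrng* held in all 12 fits that left out 1 muscle. *Fermt2* and *Synm* stayed under 0.05 only when *FRAIL1* muscle 2, 3 or 5 was left out, reaching at most 0.0872 and 0.0859. *Itgb1* stayed under it in 4 of the 12 fits, *Lims1* and *Anxa5* in 3 and *Chrne* in 9. Their adjusted p-values reached at most 0.0846, 0.0990, 0.0997 and 0.0567. *Itgb1* kept its call without *FRAIL1* muscle 2, 3, 5 or 6, *Lims1* without Control muscle 4 or *FRAIL1* muscle 2 or 3, and *Anxa5* without *FRAIL1* muscle 2, 3 or 6. *Chrne* lost it without Control muscle 2 or 3 or *FRAIL1* muscle 1.

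**Figure D5:**
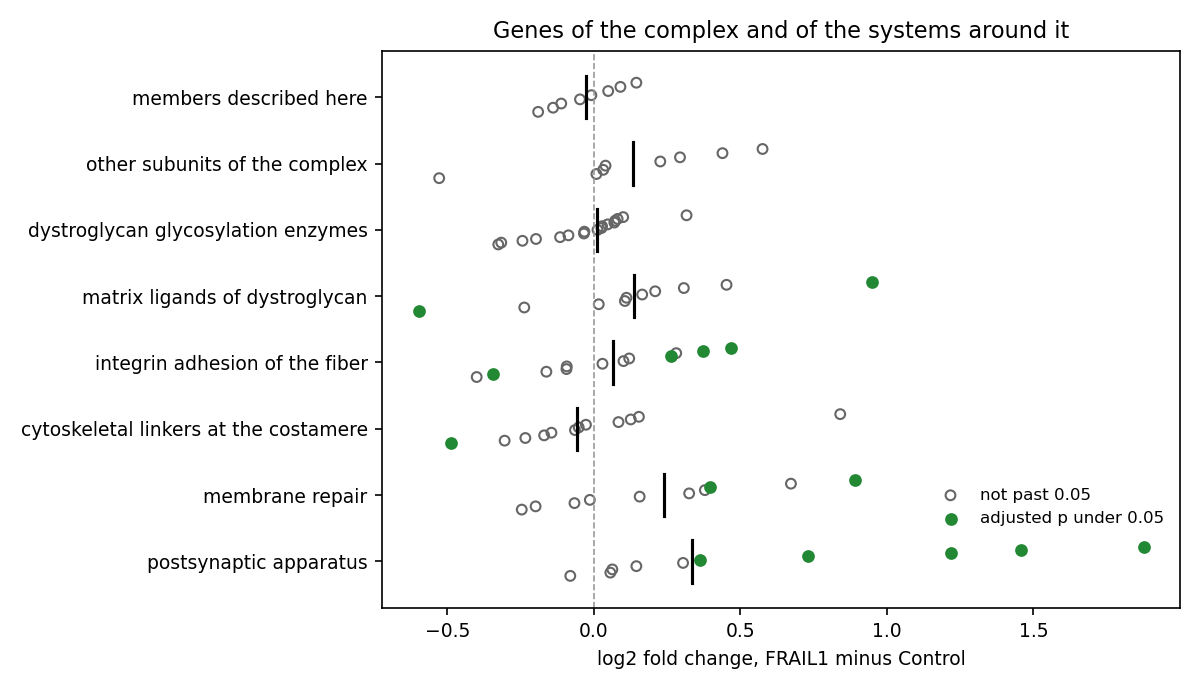
Log2 fold change, *FRAIL1* minus Control, of the tested genes in each list (points, spread vertically only for display), with genes at an adjusted p-value under 0.05 filled in green and the median of the list as a black line. The 8 members lie between -0.19 and 0.14 with none filled, and the filled points reach 1.88 in the postsynaptic list.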

How the data were processed

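Poly(A) RNA-seq of 12 TA muscles was analysed. The deposited values are counts: per the labels and methods, the authors trimmed read pairs with Trimmomatic, mapped them to mm10 with STAR 2.7.8a and counted uniquely mapped reads per annotated gene with featureCounts 2.0.1, without normalization. The strand setting and annotation release are not given in the sources used here. Of 27179 NCBI Gene IDs, 25275 matched a RefSeq symbol, and the rest held 0.280% of counts. Groups came from sample titles. No libraries of a group were copies (chi-square per degree of freedom at least 14.5).

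Genes passing filterByExpr (15502) were scaled with TMM and compared with edgeR 4.0.16's robust quasi-likelihood test in R 4.3.3, over all genes, at an adjusted p-value of 0.05, without a term for the mouse. All adjusted p-values are from this test unless another is named. Standard errors are the log2 fold change over the square root of F. Log2 CPM used a prior count of 2. On counts simulated for this comparison over 15502 genes, with 100 genes changed at each size, the test recovered 43% of changes of 0.5 and 82% of changes of 1 on the log2 scale. The simulation held no effect of the mouse and no changes as small as those of the members, so recovery at their sizes was not measured. GENCODE M21 gave positions, exon lengths and overlaps.

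Same-numbered muscles were taken as 1 mouse, from the design of 1 Control and 1 *FRAIL1* TA per mouse. The correlation of their deviations from group means was 0.254, 0.162, 0.282, 0.263, 0.0547 and 0.185 for numbers 1 to 6, against a mean of -0.0400 between other pairs, so the number 5 is linked least.

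Named were all members, the list genes past the threshold (at most 8 a list) and, where a list had fewer than 2 of these, also its 2 most abundant genes, and the 3 genes most like each member. The rule was applied to the full lists. Some genes that it or the lists hold are not reported here, were left out of the list counts and were not replaced. *Nos1*, *Sntb1*, *Musk*, *Rapsn*, *Dok7*, *Colq*, the markers and the genes called only with the block were named outside this rule, after their values were seen. The members and lists were chosen with earlier results of these data known. Alternatives were the mouse as a block, other scalings and filters, DESeq2 1.42.0, limma 3.58.1 voom, and leaving out muscles. Leaving out each mouse with the block and the second length rule were chosen after seeing the data. The study's exon-level analysis was not repeated.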

Additional observations from a re-analysis of the deposited data

Results flagged for a closer look

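In groups of 6 muscles, the gap between the extreme muscle and its neighbor was large for the range of the group in 5 of 52 groups examined, where chance flags about 5% of groups. Among the members, *Sspn* in Control muscle 1 was low at 108 CPM, with the next muscle at 149 CPM, and the *FRAIL1* muscle of the same number was the lowest of its group as well. *Sgcd* in *FRAIL1* muscle 2 was low at 4.44 CPM, with the next at 5.97 CPM. Among the other genes, *FRAIL1* muscle 5 was set apart for *Egflam* (13.2 CPM, next 19.8 CPM), *Itgb1* (387 CPM, next 323 CPM) and *Lims1* (72.6 CPM, next 56.2 CPM).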

How the results depend on the processing

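The members' log2 fold changes kept their direction and their side of the threshold under most alternatives. *Sspn* passed the threshold once the mouse was a block: -0.20 in edgeR, -0.20 in DESeq2 and -0.17 without both muscles numbered 5, and with mice left out 1 at a time it was called without mouse 2 (-0.21) or 5 (-0.17). In those fits the number of members called was 1, and without a block it was 0 under every alternative, also with any 1 muscle left out. *Utrn* ran from -0.011 to 0.094 with 1 muscle left out and turned to -0.011 without *FRAIL1* muscle 5, to -0.027 without both muscles numbered 5 and to -0.029 with the block besides. *Dag1* turned sign with single muscles left out, reaching -0.044 to 0.023, and with the block without mouse 1, 3, 4 or 6 (0.0082, 0.0054, 0.0092 and 0.013). The block changed no other member's call. The 3 other scalings, which also adjust for the composition of each library, changed no member's direction or call. The number of genes called was 2186 with the replicate block, 2305 with it and without both muscles numbered 5, 292, 1908, 2004, 682 and 1045 with it and without mouse 1, 2, 3, 4 or 6, 2232 with DESeq2, 2898 with DESeq2 and the block, 1836 with limma voom, and 364 (without *FRAIL1* muscle 1) to 2110 (without *FRAIL1* muscle 3) with 1 muscle left out, where every muscle except *FRAIL1* muscle 5 moved it by over 1.5 times. The number of other pathway genes called was 22 with the block, 24 with it and without both muscles numbered 5, 8 with it and without mouse 1, 22 with DESeq2, 31 with DESeq2 and the block, and 8 (without Control muscle 3 or *FRAIL1* muscle 1) to 22 (without *FRAIL1* muscle 3) with 1 muscle left out. The median of the members stayed between -0.070 and 0.0048 with 1 muscle left out. The causes were not tested. *Sgcd* had the fewest reads of the members, 207 to 380 a muscle.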
